A study of Rattus norvegicus with 24 samples.

Results

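The hippocampus was set against 5 other brain regions in RNA of saline-injected rats, to find which genes mark it. Of 24 saline channels on 24 two-colour arrays, 4 held hippocampus RNA and 20 held RNA of cerebral cortex, amygdala, ventral striatum, hypothalamus and midbrain, 4 channels each. All rats were male Wistar rats of 10 weeks whose brains were taken 40 min after an injection into the abdomen. Saline was given to 3 rats, and 6 received MK-801, which plugs the ion channel of NMDA-type glutamate receptors, at 0.16 or 0.08 mg per kg. Each array paired saline RNA of a region with MK-801 RNA of the same region in the other dye, and every region had 2 dye swaps, 1 for each dose of the partner RNA. Only the saline channel chose the genes below. The labels name no animal and do not say whether RNA was pooled, so p-values measure only the spread between dye swaps, which may be technical.

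The hippocampus consists of the CA fields, whose pyramidal neurons are glutamatergic, and the dentate gyrus, whose granule neurons are small, densely packed and renewed through adult life. It belongs to the pallium, the part of the forebrain that also gives rise to the neocortex and much of the amygdala, and is best known for memory formation and for long-lasting changes in synaptic strength. Neurons of the hippocampus thus share many genes with those of the cortex and amygdala. In bulk tissue, fewer cells of a type and less RNA per cell cannot be told apart.

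Values are log2 intensities after quantile normalization of the 24 saline channels, and a difference is the hippocampus mean minus the mean of the 5 other region means. Of 28095 genes or transcripts tested, 13165 had a symbol. A gene was called hippocampus-high or hippocampus-low when it met 3 criteria: a limma adjusted p under 0.05, a difference of at least 1 log2 unit, and, within each dye, no overlap between the 2 hippocampus channels and the 10 others. By these criteria 500 genes were high, 1.78% of those tested, and 249 were low, 0.886%. A symbol was had for 267 of the high and 132 of the low genes. The adjusted p alone passed 34.2% of genes, 16.4% as higher and 17.8% as lower, and the adjusted p with the difference of 1 passed 4.64% as higher and 5.48% as lower. The median difference was 1.49 over the high genes, -1.47 over the low genes and -0.03 over all genes tested.

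Depth and layout set the limits. In a saline channel 56.75% to 89.67% of spots were well above background, and the median SD between the 2 dye swaps was 0.197 log2 units in the hippocampus against 0.12 to 0.166 in the other regions. The 4 arrays of a region were counted as 1 slide by their region label, so region and slide cannot be told apart here. Of the other regions, only the hypothalamus was scanned on the day of the hippocampus arrays. The normexp background correction started from the raw mean and background signals in place of the processed signal, so it left out the scanner software's dye normalization. It also added an offset of 50, which by itself narrows the differences of dim genes. With it, 332 genes were called high and 98 low. With scan day as a block, 194 genes were called high and 94 low, of which 175 and 81 were among those above. Only the hypothalamus shares the scan day of the hippocampus, so this fit estimates the difference from the hypothalamus alone. Gaps between other regions scanned together add to its error, so a call lost there does not show an effect of scan day. Of the 60 called genes that the naming rule chose, 28 lost their call with that block and 25 with normexp. When each region counted as 1 value and the hippocampus was set against the spread among the 5 others, no gene had a limma adjusted p under 0.05, and 1395 had an unadjusted p under 0.05.

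The clearest hippocampus-high genes were those with the widest margin over the next-highest region. Klk8, which encodes neuropsin, a secreted serine protease that cleaves extracellular and adhesion proteins at synapses, stood first (probe at chr1:94312016-94312075 on rn3). Its 4 hippocampus channels read 12.39, 12.19, 12.10 and 11.98, against 2.02, 3.92 and 7.50 as the lowest, median and highest of the 20 other channels. No hippocampus channel came near the others. Klk8 differed by 7.68 ± 0.32 (SE; limma adjusted p = 2.73e-06) and lay 5.16 above the amygdala, the next region. It was well above background in 4 of 4 hippocampus channels and 9 of the 20 others. Under the normexp background correction its difference was 5.22, so the size depends on the setting.

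Kcng2, a modulatory subunit of voltage-gated potassium channels, read 10.47, 10.34, 11.06 and 10.28 in the hippocampus, against 5.79, 7.16 and 7.91 as lowest, median and highest elsewhere. It was well above background in every channel, and its difference was 3.59 ± 0.14 (SE; limma adjusted p = 2.27e-06). Of its other probes, 2 gave differences of 2.95 and 3.64 and 1 gave -0.71. Cabp7, a calcium-binding protein of the EF-hand family, had hippocampus channels at 13.74, 13.53, 13.85 and 13.55, against 8.84, 10.05 and 11.22 elsewhere, a 12.6-fold difference (3.66 ± 0.09, SE; limma adjusted p = 4.43e-07). A second Cabp7 probe gave 3.85. The midbrain came next for Cabp7, 2.68 log2 units below the hippocampus, and the cerebral cortex was lowest.

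Slc9a4, a sodium-proton exchanger of the plasma membrane, read 9.53, 9.21, 8.85 and 9.18 in the hippocampus, against 2.78, 3.91 and 7.32 elsewhere. The amygdala, at a mean of 6.84, was the only other region in which all 4 channels were well above background. The difference was 4.88 ± 0.23 (SE; limma adjusted p = 5.26e-06), or 2.72 with the normexp correction. Smpd2, a neutral sphingomyelinase that releases ceramide from membrane lipids, read 9.88, 9.35, 9.82 and 9.94, against 6.85, 7.12 and 7.86 elsewhere, 5.84-fold higher. For these genes the probe can be shown to read spliced RNA, since its 60 bases map to a longer stretch of the rn3 assembly. The Slc9a4 probe spans 4072 bases at chr9:39769172-39773243 (+ strand) and the Smpd2 probe 167 bases at chr20:45473417-45473583 (- strand). The probe of the hippocampus-low gene Dok5 spans 180 bases at chr3:161589042-161589221 (+ strand). The 3 probes are given 5′ to 3′ in lower case, with no capitals.
Slc9a4 probe: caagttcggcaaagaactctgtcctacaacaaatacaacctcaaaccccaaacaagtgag
Smpd2 probe: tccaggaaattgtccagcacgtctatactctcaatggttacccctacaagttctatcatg
Dok5 probe: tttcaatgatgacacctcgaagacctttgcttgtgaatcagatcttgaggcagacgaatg

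Mas1, the receptor for angiotensin-(1-7), graded across the regions (probe at chr1:42188336-42188395 on rn3). Its hippocampus channels read 11.79, 11.81, 12.01 and 11.70, against 4.90, 7.88 and 10.02 elsewhere. The other region means ran 9.95 in the cerebral cortex, 9.80 in the amygdala, 7.91 in the ventral striatum, 5.78 in the hypothalamus and 5.10 in the midbrain. The hippocampus was 17.4-fold above the mean of the others and 1.88 log2 units above the cortex. Icam5, or telencephalin, a dendritic adhesion molecule of the telencephalon, read 10.04, 10.58, 10.45 and 9.82, against 3.00, 7.63 and 8.28, with the amygdala next and the midbrain lowest. Its difference was 3.79 ± 0.12 (SE; limma adjusted p = 1.31e-06), and a second probe gave 1.32. Both genes lost their call with scan day as a block.

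Htr1a, the serotonin 1A receptor, read 7.18, 6.97, 7.46 and 6.94 in the hippocampus, against 2.70, 4.61 and 5.25 elsewhere. It was well above background in 11 of the 20 other channels and in none of the hypothalamus, and its difference was 2.95 in the main setting and 1.35 with the normexp correction. Prkce, protein kinase C epsilon, read 11.79, 11.51, 12.21 and 11.55, against 8.02, 9.59 and 9.96. Both genes had hippocampus channels wholly above the rest. The 3 Prkce probes gave differences of 2.41, 2.22 and 1.89. Pkp2, plakophilin 2, a protein of desmosomes, read 12.10, 12.05, 11.90 and 12.09, against 8.18, 9.17 and 10.15, and its 3 probes gave 2.85, 2.51 and 2.95, but its call was lost with scan day as a block. Desmoplakin, encoded by Dsp and also a desmosome protein, differed by 1.81 ± 0.14 (SE; limma adjusted p = 6.44e-05).

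**Figure D1:**
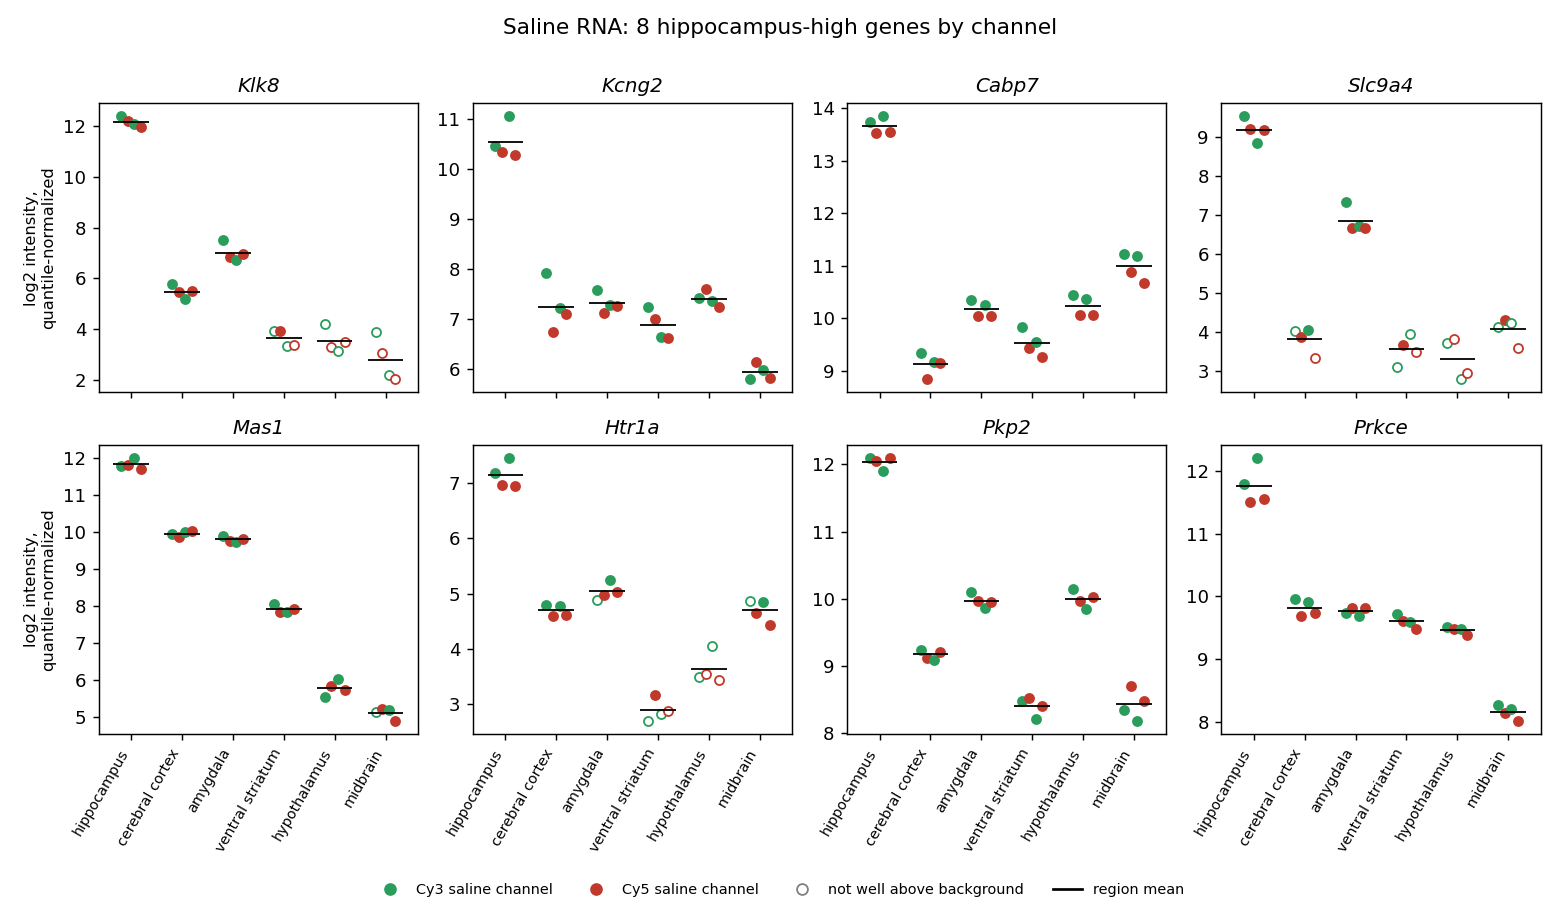
Log2 intensity of 8 hippocampus-high genes in each saline channel, by region, with green points for Cy3, red points for Cy5, open points for spots not well above background and a line at the region mean. The 4 hippocampus channels lie above the 20 others for every gene shown, and the next region differs from gene to gene.

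The rest of the 16 leading high genes were dim, as was Htr1a at a hippocampus mean of 7.14. Cxcr1, an interleukin 8 receptor, Mx1, an interferon-induced GTPase, Ambp, the precursor of alpha-1-microglobulin, Phlda2, an imprinted gene, Myom2, a protein of the muscle M band, and Fibcd1, a chitin-binding membrane protein, had hippocampus means of 6.20 to 7.74. All 6 were well above background in every hippocampus channel but in only 2 to 10 of the 20 others, and Mx1 and Ambp, at 2 and 3 of the 20, passed the filter on dim probes only through their hippocampus channels. In the cerebral cortex, Cxcr1, Phlda2, Myom2 and Fibcd1 were well above background in 4 of 4 channels. Their differences were 2.48 to 4.00 in the main setting and 0.88 to 1.70 with the normexp correction. The direction held for all 6, the sizes did not, and Ambp at 0.88 and Fibcd1 at 0.91 lost their call.

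The hippocampus-low genes with the widest margins were led by Foxp2, a forkhead transcription factor of striatal, thalamic and deep cortical neurons (probe at chr4:41093376-41093435 on rn3). Its hippocampus channels read 5.14, 5.01, 5.30 and 5.0, against 8.47, 10.25 and 11.56 as lowest, median and highest elsewhere. Foxp2 fell by 4.98 log2 units relative to the other regions (± 0.12, SE; limma adjusted p = 4.43e-07), and a second probe gave -3.79. It was well above background in 2 of 4 hippocampus channels, and with the normexp correction it differed by -3.54. The ventral striatum was the highest region at 11.48 and the amygdala the lowest of the 5 at 8.70, relative to which the hippocampus fell by 3.58.

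Spp1, which encodes osteopontin, read 4.36, 4.63, 3.70 and 4.99 in the hippocampus, against 6.57, 7.57 and 14.89 elsewhere. The midbrain mean of 14.70 set the top of this range. Relative to the cerebral cortex, the next-lowest region, the hippocampus fell by 2.25. Only 2 of 4 hippocampus channels of Spp1 were well above background, its difference was -3.20 with the normexp correction, and its call was lost with scan day as a block. Tfap2b, an AP-2 transcription factor, read 4.54, 5.0, 4.41 and 4.46, against 6.46, 7.75 and 8.57, with 1 of 4 hippocampus channels well above background. Its difference was -2.99 in the main setting and -1.69 with the normexp correction. Elmo1, which acts with Dock proteins to activate Rac, read 6.40, 5.89, 6.80 and 6.89, against 8.25, 9.24 and 10.46. A second Elmo1 probe gave -2.36 and another 0.60, and the mean of its probes gave no call.

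Slc22a3, an organic cation transporter, was not well above background in any hippocampus channel and was at least 5.52-fold lower there than in the other regions, against a bound set by the lowest measured signals. Hcn4, a pacemaker channel subunit, was likewise not well above background in the hippocampus, and its bound was at least 1.02-fold lower; it lost its call with the normexp correction. Hs3st5, a heparan sulfate sulfotransferase, read 2.30, 3.42, 5.76 and 1.86 in the hippocampus, against 5.66, 7.26 and 8.02. Its channel at 5.76 touched the range of the others, but not that of the same dye. It was well above background in 1 of 4 hippocampus channels and lost its call with the normexp correction. Klhdc8a, a kelch-domain protein, Dok5, a signalling adaptor, and Plaat1, a phospholipid acyltransferase, had differences of -2.88, -2.49 and -3.13, or -1.83, -1.28 and -1.62 with the normexp correction. A second Dok5 probe gave -0.67, and Dok5 lost its call with the mean of its probes and with scan day as a block.

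**Figure D2:**
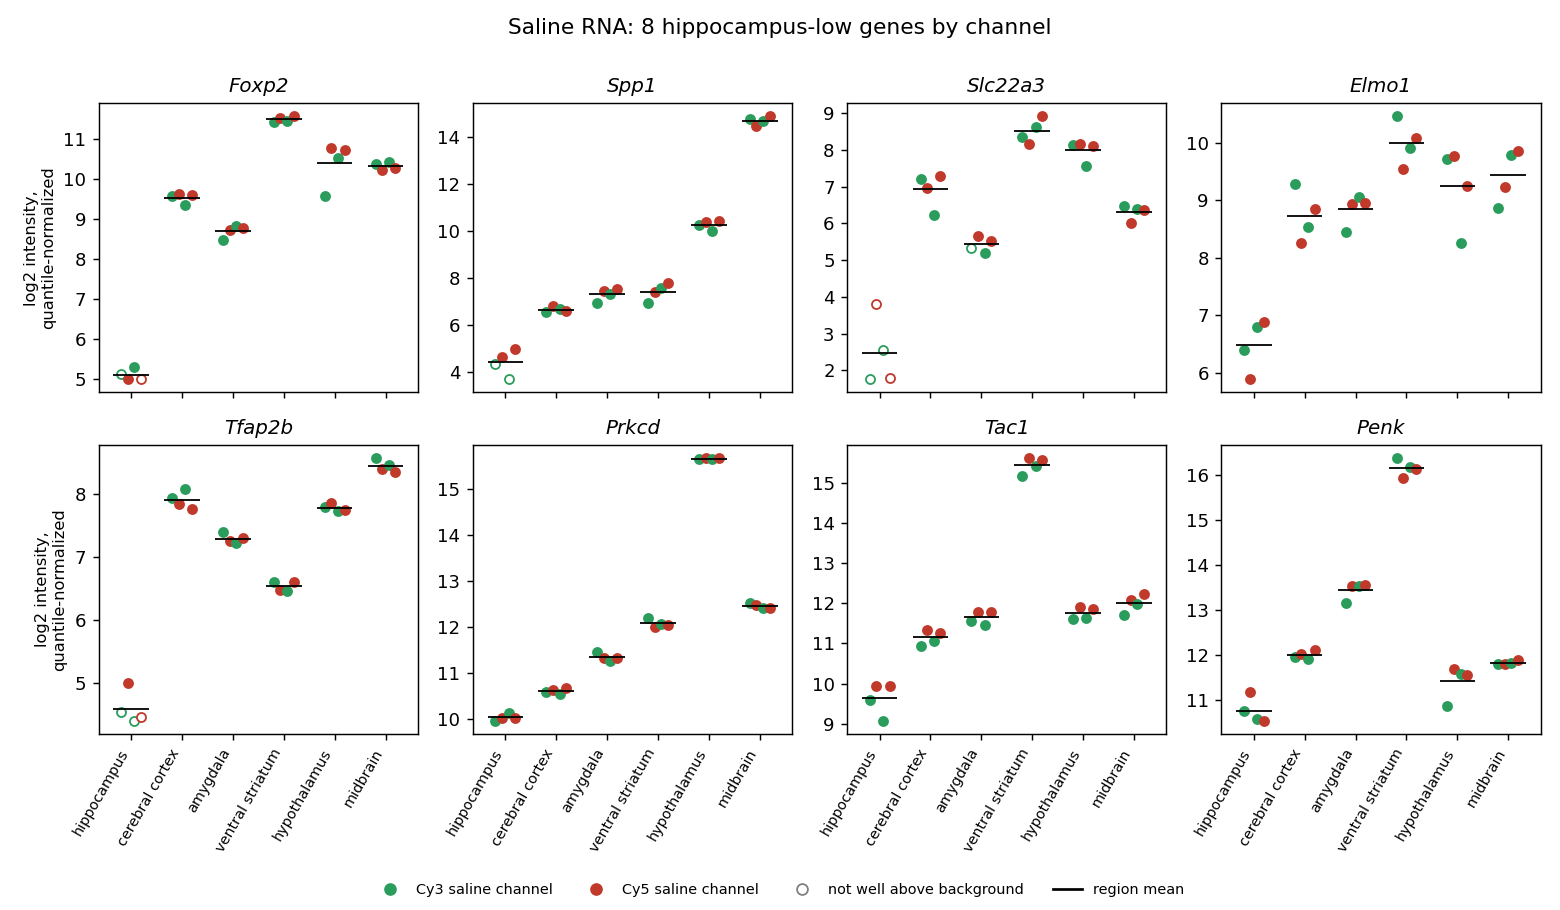
Log2 intensity of 8 hippocampus-low genes in each saline channel, by region, with the same marks: green Cy3, red Cy5, open points not well above background, lines at region means. The 4 hippocampus channels lie below the 20 others within each dye, and the region that is highest is the ventral striatum for Foxp2, Slc22a3, Elmo1, Tac1 and Penk, the midbrain for Spp1 and Tfap2b and the hypothalamus for Prkcd.

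Lists of genes by cell type and function placed these leaders in context. They are described by counts and medians, to be read against 1.78% high, 0.886% low and a median of -0.03 over all genes tested, and counts by adjusted p against 16.4% higher and 17.8% lower. Of 18 tested transcription factors of the pallium, 3 were hippocampus-high and none low, 11 passed the adjusted p as higher and 1 as lower, and the median difference was 1.52. Neurod2, a bHLH factor of glutamatergic neurons, read 12.77, 12.51, 12.99 and 12.62 in the hippocampus, against 5.17, 8.27 and 11.63 elsewhere. It differed by 4.01 ± 0.11 (SE; limma adjusted p = 4.43e-07). Neurod1, its relative in granule neurons, was 9.87-fold higher, and Zbtb20, a zinc finger factor of hippocampal development, 3.71-fold. Neurod6 differed by 3.44 but was not called, with a difference of 0.29 from the cerebral cortex.

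NeuroD factors bind E-boxes, so the promoters of the genes were searched for CAGATG on either strand (CATCTG on the other) and for CATATG, which reads the same on both and overlaps neither. RefSeq promoters of the GRCr8 assembly, 250 bases before to 50 after each start, were matched by symbol for 210 high, 105 low and 10711 tested genes. At least 1 of the motifs occurred in 15.2% of the high, 15.2% of the low and 13.9% of all tested genes' promoters, and in 19.5% of all 27457 promoters. These shares are a description. Among the named genes, Il16, Sstr3, Kcnab2 and the low gene Klhdc8a held 1 motif each and are not shown. Neurod2 itself held both motifs, and Rgs14, Slc9a4 and the low gene Tac1 held 1 each. Those 4 promoters are shown 5′ to 3′ on the strand of the gene, with the motifs in capitals: Neurod2 at chr10:83824228-83824527 (- strand), Rgs14 at chr17:9268184-9268483 (- strand), Slc9a4 at chr9:50320698-50320997 (+ strand) and Tac1 at chr4:36645333-36645632 (+ strand), all on GRCr8.
Neurod2 promoter: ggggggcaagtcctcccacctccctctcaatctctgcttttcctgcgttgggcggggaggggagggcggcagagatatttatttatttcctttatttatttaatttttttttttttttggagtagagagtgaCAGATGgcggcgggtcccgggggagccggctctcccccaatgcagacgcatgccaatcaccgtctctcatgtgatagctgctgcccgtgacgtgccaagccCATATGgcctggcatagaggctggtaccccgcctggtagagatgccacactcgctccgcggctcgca
Rgs14 promoter: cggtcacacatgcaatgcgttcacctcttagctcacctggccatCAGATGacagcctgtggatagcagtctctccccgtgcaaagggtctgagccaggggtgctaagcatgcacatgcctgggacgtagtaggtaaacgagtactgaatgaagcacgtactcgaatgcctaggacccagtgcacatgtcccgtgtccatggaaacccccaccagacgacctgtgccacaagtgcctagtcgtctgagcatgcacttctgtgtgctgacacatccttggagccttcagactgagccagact
Slc9a4 promoter: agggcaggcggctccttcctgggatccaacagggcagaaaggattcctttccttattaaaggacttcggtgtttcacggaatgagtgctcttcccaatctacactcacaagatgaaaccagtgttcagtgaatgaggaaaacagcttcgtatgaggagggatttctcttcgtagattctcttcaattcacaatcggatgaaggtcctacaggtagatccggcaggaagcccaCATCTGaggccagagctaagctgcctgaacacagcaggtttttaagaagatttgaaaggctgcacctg
Tac1 promoter: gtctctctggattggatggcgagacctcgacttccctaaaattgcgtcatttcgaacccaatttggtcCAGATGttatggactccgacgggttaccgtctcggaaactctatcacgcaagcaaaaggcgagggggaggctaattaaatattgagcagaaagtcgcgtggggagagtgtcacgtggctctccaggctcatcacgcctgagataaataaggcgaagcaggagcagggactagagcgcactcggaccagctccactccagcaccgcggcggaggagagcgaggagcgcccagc

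Of 18 tested markers of CA field pyramidal neurons, 4 were hippocampus-high, 13 passed the adjusted p as higher and 1 as lower, and the median difference was 1.32. The mean over the list was 10.24 and 10.28 in the 2 hippocampus dye swaps, against 7.95 to 9.88 in the other regions. Crym, a thyroid hormone-binding protein, read 16.04, 16.47, 16.29 and 16.31 in the hippocampus, against 10.93, 15.29 and 15.91. Its margin over the cortex was 0.51, and its margins over hypothalamus and midbrain were 4.72 and 5.17. Rgs14, a signalling regulator of CA2 neurons, was 5.22-fold higher, and Wfs1, an endoplasmic reticulum protein of CA1 neurons, 4.27-fold. Pcp4, a calmodulin-binding peptide, went the other way by -1.39, and its difference from the hypothalamus was -2.55.

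Of 10 tested markers of dentate granule neurons, 3 were hippocampus-high, 6 passed the adjusted p as higher and 2 as lower, with a median difference of 1.45. Il16, a cytokine precursor, read 7.33, 5.67, 7.26 and 7.48 in the hippocampus, against 3.42, 4.13 and 5.84 elsewhere. Its second channel lay within the range of the other regions, but above those of its own dye. Gpc4, a heparan sulfate proteoglycan, was 3.31-fold higher. Prox1, the factor that specifies granule neurons, differed by 2.02 (limma adjusted p = 0.000601) but lay only 0.13 above the hypothalamus. It was well above background in 1 of 4 hippocampus channels and gave no call. Calb1, calbindin, differed by -0.91, with the ventral striatum highest. The list of adult neurogenesis had no call among 12 tested genes. By adjusted p 6 were higher and 1 lower, with a median difference of 0.31. Calb2, calbindin 2, had the largest difference at -1.67 (limma adjusted p = 0.000111). The largest rise was that of Dcx, doublecortin of young neurons, at 1.06 (limma adjusted p = 0.000231).

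Glutamate receptors and the proteins of synaptic plasticity were higher in part. Among 17 tested ionotropic subunits, 2 were called high, 9 passed the adjusted p as higher and 3 as lower. Gria1, the GluA1 subunit of AMPA receptors, read 11.33, 10.84, 11.45 and 10.88 in the hippocampus, against 7.57, 8.91 and 10.06, 4.67-fold higher. Grin2b, the GluN2B subunit of the NMDA receptor that MK-801 blocks, was 2.31-fold higher (limma adjusted p = 0.000163) but only 0.34 above the ventral striatum. Its call was lost with the normexp correction, with scan day as a block and without the midbrain. Grin2a differed by 1.85 and Grin1 by 0.47 with no call. Among 23 kinases and scaffolds of the synapse, 4 were called high, 16 passed the adjusted p as higher and none as lower, with a median of 0.93. Ncdn, neurochondrin, was 2.56-fold higher. Camk2b, a subunit of the calcium- and calmodulin-dependent kinase, was 2.24-fold higher in a fit without 1 midbrain dye swap, where a spot was masked, while its other probes gave 1.04 and -0.56 and the mean of its probes gave no call. Camk2a differed by 2.05 without a call, 0.29 above the cortex.

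GABA-A receptor subunits split. Of 13 tested, Gabrb1, the beta1 subunit, was called high at 2.46-fold, 4 passed the adjusted p as higher and 6 as lower, and the median was -0.49. Gabra4 differed by -1.17. Interneuron markers gave no call among 18 tested, with a median of -0.01. Metabotropic glutamate receptors gave no call among 7.

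Receptors for neuromodulators held 5 high genes among 33 tested. By adjusted p 17 were higher and 9 lower, with a median difference of 0.42. Adra1d, the alpha-1D adrenoceptor, read 13.29, 13.35, 13.61 and 13.03 in the hippocampus, against 7.73, 10.45 and 13.05 elsewhere, and was 9.12-fold higher overall but only 0.44 above the cortex. Its last Cy5 hippocampus channel lay within the range of the other regions, but above those of its own dye. Sstr3 and Sstr4, somatostatin receptors, were 2.74-fold and 2.26-fold higher, and Chrm3, the muscarinic M3 receptor, 2.52-fold. Sstr3 lay only 0.42 above the amygdala, and Chrm3 only 0.46 above the cerebral cortex (limma adjusted p = 0.0517). Drd1, the dopamine D1 receptor, was not well above background in any hippocampus channel and had no call. Potassium channels gave 3 high genes of 35. Kcnj6, a G-protein-gated inward rectifier, was 3.21-fold higher, Kcnd3, an A-type channel, 2.72-fold, and Kcnab2, an auxiliary beta subunit, 2.69-fold. Kcnj6 lay only 0.49 above the cerebral cortex (limma adjusted p = 0.105). A second Kcnd3 probe gave -0.59. Of the 35 potassium channels, 12 passed the adjusted p as higher and 7 as lower, with a median difference of 0.18.

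Activity-regulated genes, which neurons switch on upon firing, went both ways. Of 17 tested, Junb was high at 2.62-fold but lay only 0.4 above the cerebral cortex (limma adjusted p = 0.132). Dusp1, a phosphatase of MAP kinases, was 2.88-fold lower and Vgf, a secreted neuropeptide precursor, 2.23-fold lower. Dusp1 read 8.26, 8.58, 8.02 and 8.24 in the hippocampus, against 8.60, 9.53 and 11.02, with the hypothalamus highest. In the stress list of 11 tested genes, Crhr1, the corticotropin-releasing hormone receptor, was 2.15-fold lower, though its difference from the ventral striatum was only -0.27. A second Crhr1 probe gave -0.53, and the mean of its probes gave no call. Nr3c1, the glucocorticoid receptor, differed by -0.23 (limma adjusted p = 0.191).

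Among markers of neocortical layers, Nptx1, a secreted pentraxin of synapses, was 7.27-fold and Rasgrf2, a Ras activator, 4.10-fold higher, and Foxp2 was low, out of 16 tested. Fezf2 differed by 4.11 and was not called, lying 0.03 above the cortex.

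Markers of other regions were examined for the low side. Of 15 tested striatal projection neuron genes, 3 were called low, 11 passed the adjusted p as lower and 1 as higher, with a median of -1.04. Tac1, the precursor of substance P, read 9.60, 9.94, 9.08 and 9.95 in the hippocampus, against 10.93, 11.78 and 15.62, and was 6.76-fold lower. Its difference was -5.80 from the ventral striatum and -1.5 from the cerebral cortex, the next-lowest region. Penk, proenkephalin, was 4.64-fold lower, and a second Penk probe gave -1.11. Among 9 thalamic neuron genes, Prkcd, protein kinase C delta, was called low. It read 9.96, 10.02, 10.13 and 10.01 in the hippocampus, against 10.53, 12.04 and 15.67, highest in the channels labelled hypothalamus. Of 10 midbrain monoamine neuron genes, Ddc, the enzyme that makes dopamine and serotonin, was 2.62-fold lower. Its difference from the cerebral cortex was only -0.34 (limma adjusted p = 0.0643). Slc6a3, the dopamine transporter, was not well above background in any hippocampus channel. Six3, a forebrain patterning factor, was the 1 low call among 30 subcortical transcription factors and was also not well above background there. Of these factors 12 passed the adjusted p as lower and 2 as higher, with Dlx1 at 1.57. The 16 hypothalamic peptide genes gave no call, with 4 higher and 7 lower by adjusted p and a median of -0.09. Nts, the neurotensin precursor, had the largest difference among them, at 2.36 (limma adjusted p = 2.96e-05), and lay 0.52 above the ventral striatum.

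The calls of list members differed in how they stood up to other settings. As above, a call lost with scan day as a block does not show an effect of scan day. Gpc4, Zbtb20, Gria1, Gabrb1 and Prkcd kept theirs with the normexp correction and with scan day as a block. Vgf did too, but lost it without 1 hippocampus dye swap. Crym, Rgs14, Neurod2, Neurod1, Chrm3, Nptx1 and Tac1 lost theirs with scan day as a block but not with normexp, and Il16, Dsp, Dusp1, Kcnd3 and Kcnab2 with normexp but not with scan day. Wfs1, Grin2b, Ncdn, Camk2b, Junb, Crhr1, Adra1d, Sstr3, Sstr4, Kcnj6, Rasgrf2, Six3, Penk and Ddc lost theirs under each of them. Junb, Camk2b and Ddc lost it without the midbrain as well, and Crhr1 without the cerebral cortex.

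**Figure D3:**
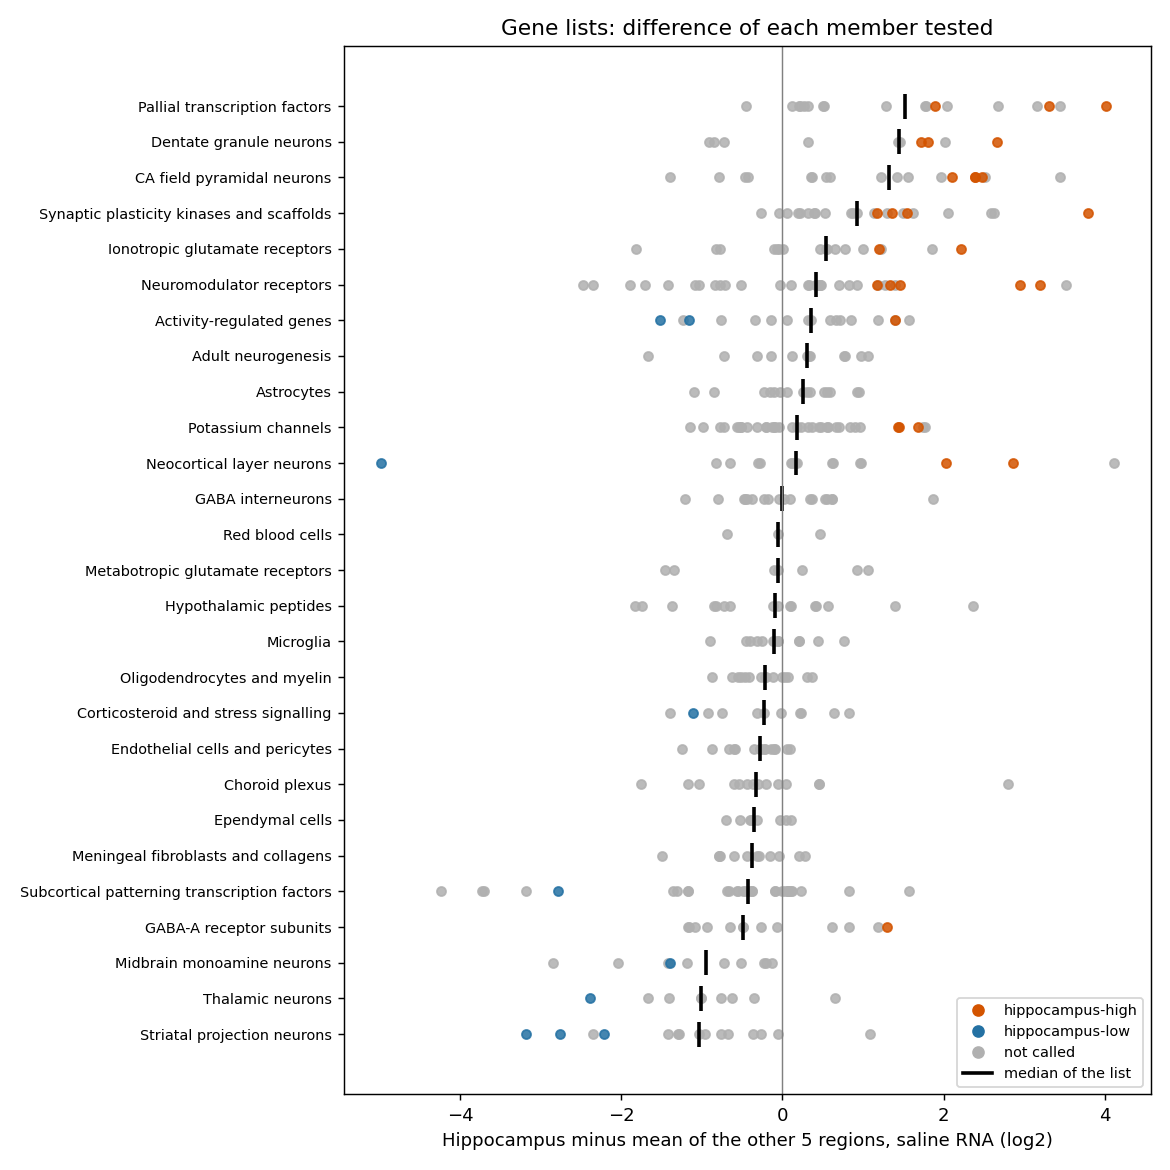
Difference between the hippocampus and the mean of the other 5 regions in saline RNA, on the log2 scale, for each tested member of 27 gene lists, with orange points for hippocampus-high, blue for hippocampus-low and grey for uncalled genes and a black bar at the list's median. Pallial, dentate and CA field lists stand at medians of 1.52, 1.45 and 1.32, and striatal, thalamic and midbrain monoamine lists at -1.04, -1.01 and -0.95.

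Lists of non-neuronal cells gave no call: none of 15 oligodendrocyte, 15 astrocyte, 13 microglia, 15 endothelial and pericyte, 12 meningeal, 8 ependymal, 14 choroid plexus and 3 red blood cell genes. With 0.886% low and 1.78% high over all genes, lists of this size would hold few calls. Their medians lay between -0.38 and 0.25. By adjusted p, 6 of the meningeal genes were lower, as were 5 each of the oligodendrocyte, endothelial and choroid plexus genes, 2 ependymal and 1 red blood cell gene, with 1 choroid plexus gene higher. Of the astrocyte genes 5 were higher and 2 lower, and of the microglia genes 2 were higher and 2 lower. The mean over the choroid plexus list was 6.33 and 6.45 in the hippocampus dye swaps, against 5.22 to 8.57 elsewhere, with the amygdala highest. Ttr, transthyretin of that epithelium, differed by 2.80 (limma adjusted p = 9.35e-05) in saline RNA, but its difference from the amygdala was -2.51. In MK-801 RNA the Ttr difference was 0.28. The part of choroid plexus in other genes was not tested.

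Set against single regions by adjusted p and a difference of 1, the hippocampus differed in 20.7% of genes from midbrain, 15.8% from ventral striatum, 14.7% from amygdala, 13.7% from cerebral cortex and 11% from hypothalamus. These comparisons share the hippocampus channels. With the normexp correction the genes that differed numbered 2975 for midbrain, 2162 for ventral striatum, 1808 for hypothalamus, 1693 for amygdala and 1414 for cortex, so the regions took another order. The next-highest region was the hypothalamus for 158 of the 500 high genes, the cortex for 135, the amygdala for 115, the ventral striatum for 64 and the midbrain for 28. Within the shared scan day, 336 of the 500 high genes passed as higher than in the hypothalamus by at least 1 and 151 of the 249 low genes as lower. Over all 28095 genes tested, 1551 passed as higher and 1549 as lower. The calls used these same channels and already required no overlap with the hypothalamus within a dye, so the counts give no separate support. Cabp7 was 3.44 above the hypothalamus (limma adjusted p = 8.54e-07) and Prkce 2.30 (5.98e-06), both well above background in all 4 channels of each region. Mas1 was 6.05 above it (limma adjusted p = 8.2e-08) and Neurod2 5.82 (limma adjusted p = 1.55e-07). Both lost their call with scan day as a block, which gives the same differences but counts gaps between regions of other days as error. Ncdn was 0.30 above it and did not pass (limma adjusted p = 0.221). Of the lists, the CA field list had a median of 1.63 and the thalamic list a median of -3.19 for hippocampus minus hypothalamus.

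RNA of the MK-801 rats, from other animals on the same arrays and quantile-normalized on its own, was not used to make the calls. There 1.88% of 27996 genes were high and 1.07% low by the same criteria. All 489 high genes with a value there were higher in the hippocampus, 463 by at least 1, and 400 were called. All 247 low genes with a value were lower, 233 by at least 1, and 169 were called. Klk8 differed by 7.67 in MK-801 RNA, Kcng2 by 3.65, Cabp7 by 3.77, Mas1 by 4.66 and Foxp2 by -5.46. Slides and scan days were shared, so these values come from other rats but not from other arrays. The scanner software's dye normalization may also have used both channels of an array, so saline and MK-801 values need not be wholly separate.

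**Figure D4:**
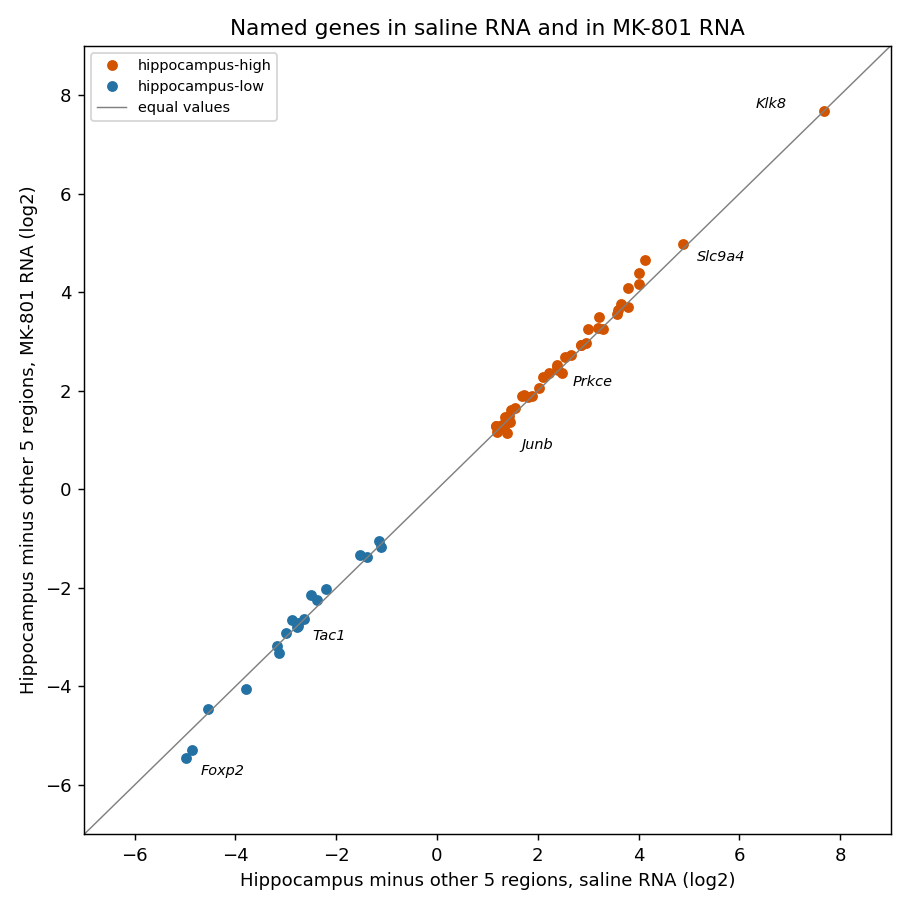
Difference between the hippocampus and the other 5 regions in MK-801 RNA against the same difference in saline RNA, both in log2 units, for the 60 called genes that the naming rule chose, 41 hippocampus-high in orange and 19 hippocampus-low in blue, with a line of equal values. All points keep their sign, and Klk8 stands at 7.68 in saline RNA and 7.67 in MK-801 RNA.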

How the data were processed

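RNA of 6 brain regions was hybridised on 24 two-colour arrays with 45018 spots, 43379 of them not controls (41012 probes). Per the file headers, the authors' deposited files were written by Feature Extraction 9.5.3.1, Agilent's scanner software, and hold a processed signal per spot and dye, an intensity after background subtraction and dye normalization, with probe positions on assembly rn3. The saline channel was taken from the dye the labels name, put on a log2 scale and quantile-normalized over 24 channels (R 4.3.3, limma 3.58.1; Python with pandas and matplotlib for figures). Outlier-flagged spots were masked. Probes well above background in at least 4 channels were kept, 33569 in number, and the brightest represented its gene. Names came from RefSeq (GRCr8), which gave 20060 probes a symbol. A fit of 12 dye-swap means (lmFit, eBayes, Benjamini-Hochberg over all genes) set the hippocampus against the 5 others weighted equally. The fit was tested on simulated data. Where a gene lacked a dye swap in another region through flagged spots, the region's other swap stood for it. A fold is 2 to the power of the difference. The bound of a gene that was not well above background uses the lowest signal well above background in each channel.

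Named genes were the 16 high and 10 low ones with a symbol and the widest margin to the next region, and from each list the called members or, where there were none, the member with the largest difference; some called members are not reported here, and other list members are given as examples chosen after their values were seen. Members, lists and tests were chosen with earlier results of these data known. Alternatives covered background correction, scaling, filters, probe choice, blocks, single dyes and left-out arrays or regions. Dye-swap numbers did not pair the samples: deviations of the hippocampus swaps correlated with those of other regions at -0.11 to 0.10. The authors' deposited table of log ratios was not used.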

Additional observations from a re-analysis of the deposited data

Results flagged for a closer look

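In 8 of 72 named genes, 1 of the 4 hippocampus channels stood apart from the other 3 after each dye's offset was removed, by the gap to its neighbour as a share of the range (above Dixon's critical value for 4 samples). Chance gives about 1 in 20. The share was 0.905 for Kcng2, whose channel on array 3 was high at 10.97 against 10.43, and 0.864 for Cabp7, whose channel on array 1 was low at 13.58 against 13.69. It was 0.839 for Ncdn, with array 1 high, 0.870 for Vgf, with array 2 low at 13.39 against 14.14, and 0.853 for Crhr1, with array 2 low. It was 0.908 for Tac1, whose channel on array 3 was low at 9.22 against 9.75, 0.854 for Ttr, with array 3 high, and 0.856 for Aqp4, with array 2 low. The difference between MK-801 and saline RNA in the hippocampus, set against that in the other regions, had no gene with a limma adjusted p under 0.05 among 27564 tested, and 3941 with an unadjusted p under 0.05.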

How the results depend on the processing

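The main setting called 500 high and 249 low genes, 28 high and 10 low members of the lists, and 2843 genes by adjusted p and a difference of 1. The normexp correction gave 332 high, 98 low, 4 low list members and 1123 genes by the looser rule. With it the single-region counts were 1414 against 3849 for the cortex, 1693 against 4141 for the amygdala, 2162 against 4433 for the ventral striatum, 1808 against 3100 for the hypothalamus and 2975 against 5819 for the midbrain, and MK-801 RNA gave 334 high and 110 low. Of its high and low genes in saline RNA, 248 and 82 were among those of the main setting. Probes well above background in all 24 channels gave 317 high, 163 low and 1190, from fewer genes tested. With 1 mean per region, all 5 counts were 0 in limma, with 1395 genes at an unadjusted p under 0.05. Scan day as a block gave 194 high, 94 low, 10 high and 4 low list members and 816 by the looser rule. Cy3 channels alone gave 754 high and 671 low, and Cy5 channels alone 808 high, 670 low and 21 low list members, with fewer channels to overlap. Leaving out the hypothalamus gave 911 high and 693 low, the cortex 402 low and the ventral striatum 19 low list members. Leaving out a hippocampus dye swap gave 732 to 751 high and 478 to 623 low genes, and leaving out an array number in every region 631 to 671 high and 351 to 482 low. These together gave 32 to 37 high and 11 to 18 low list members and 2710 to 3219 genes by the looser rule. The replicate block by dye swap gave 500 high and 249 low genes, all shared with the main setting, and so did array number as a block on single channels. Over 25 alternatives, 1342 of 1470 values of the 60 called named genes kept their call, 128 lost it and 0 changed direction, and all 60 lost it with 1 mean per region. Of the 60, 28 lost the call with scan day as a block, 25 with normexp, 6 with the mean of a gene's probes and 4 without the midbrain. Among uncalled genes, scan day as a block gave -0.76 for Ttr and 0.36 for Aldh1a2, of opposite sign to the main setting. These are their differences from the hypothalamus, the only region that fit compares with. Where no reason is given, the cause was not tested. Signal over background limits the size of differences of dim genes, and the number of arrays limits precision.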
